A study of Mus musculus with 4 samples.

Results

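The cells described here are astrocytes of the mouse brain that carried clear counts of Agt, the gene of angiotensinogen, and little Gfap. They were chosen by measured values: a barcode was kept when it held 1000 to 22005 UMIs (unique molecular identifiers, each standing for 1 captured transcript) with at most 15.8% of them mitochondrial, when Slc1a2, Slc1a3, Aldoc, Plpp3, Gja1 and Aqp4 together reached 30 per 10000 UMIs, when the endothelial genes Cldn5, Flt1 and Ly6c1 together had at most 6 UMIs and the microglial genes C1qa, C1qb and C1qc together were under 15 per 10000, and when Gfap had at most 4 and Agt at least 4 UMIs. The rule gave 1955 cells, which were 37.9% of the 5152 astrocytes of the gate and 7.17% of all barcodes within the UMI and mitochondrial limits. Another 3100 astrocytes had low Gfap and at most 3 Agt UMIs (Agt-low astrocytes), and 97 had 5 or more Gfap UMIs (Gfap-high astrocytes).

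The study profiled single cells of whole brains from 4 male C57BL/6J mice, 1 for each combination of age and diet. At the start of feeding the adult mice were 3 to 4 and the aged mice 23 to 24 months of age, and all received a purified AIN-93M diet modified to 1% cellulose with either 0% or 5% inulin, a fermentable fiber. Brains were dissociated with a commercial kit and depleted of red blood cells, myelin and dead cells before 10x Genomics 3′ libraries were made. The mice are named below adult 0%, adult 5%, aged 0% and aged 5%, and values are given in that order. The 4 mice gave 643, 608, 335 and 369 Agt cells, which held 4357587, 3930942, 2139560 and 2194842 UMIs. With 1 mouse in each combination, ages were compared over 2 against 2 mice and p-values measure the spread between these 4 mice. Of the Agt cells, 19 carried a barcode sequence that also occurred in another library, and 1 such sequence marked an Agt cell in more than 1 library.

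Angiotensinogen is the precursor from which renin and the angiotensin-converting enzyme make angiotensin peptides, and in the brain astrocytes are its main source. Astrocytes keep regional identities that follow the map of the embryonic neural tube: those of the telencephalon (cortex, hippocampus, striatum, olfactory bulb) carry factors such as Lhx2 and Emx2, and those of the diencephalon, midbrain and hindbrain carry Irx, Otx or Hox factors together with higher Agt and Slc6a11, the GABA transporter GAT3. Regional astrocytes also differ in how they handle glutamate, GABA, glycine and potassium. Agt lies on chromosome 8 from 124556534 to 124569706 on the minus strand, and Slc6a11 on chromosome 6 from 114131241 to 114249952 on the plus strand (mouse build GRCm38).

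Agt and Slc6a11 set most of these cells apart from the background of free RNA. The median Agt cell had 12 Agt UMIs, with medians of 13, 12, 12 and 11 in the 4 mice, and the quartiles over all Agt cells were 7 and 19. Among microglia of the same libraries 5 of 7021 barcodes reached 4 Agt UMIs, and among endothelial cells 8 of 8985 did, at median depths of 6714 and 6223 UMIs against 6125 in the Agt cells. Agt cells were therefore no deeper than the cells around them, and the Agt-low astrocytes had a higher median of 7022.5 UMIs. Slc6a11, which the rule did not use, had a median of 14 UMIs in the Agt cells and 3 in the Agt-low astrocytes, and 35 Agt cells (1.79%) had none against 448 Agt-low astrocytes (14.5%).

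The cut at 4 Agt UMIs fell on a continuous range and not in a gap. With 3 Agt UMIs there were 213 Gfap-low astrocytes, just outside, with a median of 6 Slc6a11 UMIs, and with 4 there were 152, just inside, with a median of 7.5. Slc6a11 ran from 5.53 per 10000 UMIs in astrocytes without Agt to 14.5 in those with 5 Agt UMIs. At the other limit, 8 astrocytes with at least 4 Agt UMIs had 4 Gfap UMIs, just inside, and 6 had 5, just outside. The Agt cells are therefore a range of astrocytes with a lower edge, of which 284 held only 4 or 5 Agt UMIs.

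Agt cells made up a smaller share of Gfap-low astrocytes in the aged mice. The share was 45.0% in the adult 0% mouse (95% Wilson interval 42.5% to 47.6%, of 1428 cells) and 38.7% in the adult 5% mouse (36.3% to 41.1%, of 1573). It was 33.1% in the aged 0% mouse (30.3% to 36.1%, of 1012) and 35.4% in the aged 5% mouse (32.6% to 38.4%, of 1042). The ages did not overlap, and the means were 41.8% ± 4.51 for the adult pair and 34.3% ± 1.63 for the aged pair (SD, n = 2), a difference of -7.58 percentage points. An exact two-sided permutation test gave p = 0.33, the smallest value that 2 against 2 mice allow. The intervals cover counting error only. With 1 mouse left out the difference between the ages ran from -4.39 to -10.77 points. With each cell thinned to 2000 UMIs and at least 2 Agt UMIs asked for, the shares were 55.1%, 51.1%, 46.0% and 49.3%, in the same order. How many of each region's cells survived dissociation was not measured, so recovery and tissue cannot be told apart in these shares.

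**Figure D1:**
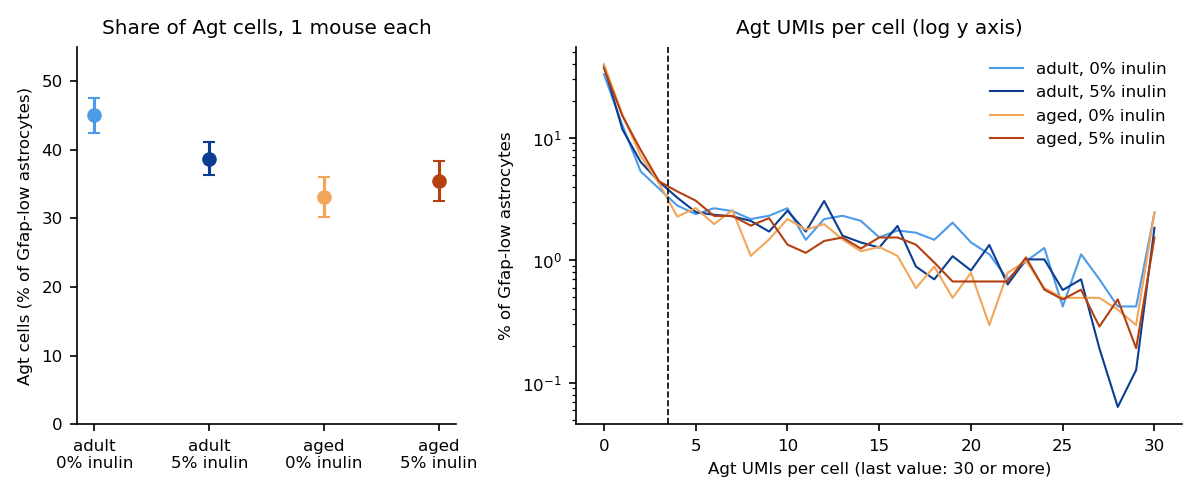
Left, Agt cells as a percent of Gfap-low astrocytes in each mouse (points, with 95% Wilson intervals); right, the percent of Gfap-low astrocytes at each number of Agt UMIs per cell on a log axis, 1 line per mouse, with the cut between 3 and 4 UMIs dashed. The adult mice lie at 45.0% and 38.7% and the aged mice at 33.1% and 35.4%, and no gap is seen at the cut.

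Agt itself was read by age in all 5152 gated astrocytes, where no criterion on Agt applied. Agt measured 950.2, 807.0, 750.2 and 807.9 CPM there (UMIs per 1000000, scaled by edgeR), so that the aged 5% mouse and the adult 5% mouse were level and the ages overlapped. The log2 fold change of aged over adult was -0.17 ± 0.09 (SE), with an adjusted p of 0.347 in edgeR's quasi-likelihood test. Slc6a11 in the same cells was 1425, 1247, 1053 and 977.9 CPM, with both aged mice below both adult mice, and had a log2 fold change of -0.40 ± 0.09 and an adjusted p of 0.0520. Neither gene passed the thresholds for a call used throughout, a fold change above 1.5 with an adjusted p below 0.05. Within the Agt cells Slc6a11 measured 2488, 2356, 2113 and 1970 CPM, with the aged mice below the adult mice and an adjusted p of 0.128.

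The label of a non-telencephalic astrocyte was checked against regional markers in the Agt cells and the Agt-low astrocytes of the same mice, with the mouse as a block. Of 13705 genes tested, leaving out those of the rule, 812 (5.92%) were higher in the Agt cells and 1145 (8.35%) were lower. All 8 further markers of non-telencephalic astrocytes were higher and all 6 tested telencephalic markers were lower, with median log2 fold changes of 2.35 and -2.50 beside 0.0055 over all genes tested. These lists were drawn up with earlier results of these data known, and the genes rise and fall beside Agt in the cells that Agt selected.

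Slc6a11 was 2524, 2378, 2139 and 1997 CPM in the Agt cells and 677, 636, 598 and 538 CPM in the Agt-low astrocytes (log2 fold change 1.88 ± 0.04 SE, adjusted p = 2.44e-14, edgeR). Irx5, a homeobox factor of the neural tube behind the telencephalon, was 55.2, 60.3, 56.1 and 51.4 CPM against 14.1, 10.9, 14.2 and 11.1 CPM. Lhx2, a homeobox factor of the telencephalon on chromosome 2, was 28.8, 32.3, 55.2 and 59.4 CPM against 225, 249, 229 and 251 CPM. For each of these genes the populations did not overlap in any mouse. Irx1, Irx2 and Irx3 had log2 fold changes of 2.80, 2.79 and 2.38, and Emx2, Dmrta2 and Chrdl1 had -2.46, -2.58 and -3.41. Mfge8, a secreted bridging protein for phagocytosis, was lower by less, at 935, 958, 1156 and 1144 CPM against 1853, 2149, 2129 and 2237 CPM. Of 13 tested patterning factors of hindbrain, midbrain and diencephalon, 9 were higher, among them Otx2, En1, En2, Pax3 and Nkx2-2, and 2 (Otx1 and Rax) were lower. The shares over all genes tested were 5.92% higher and 8.35% lower.

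**Figure D2:**
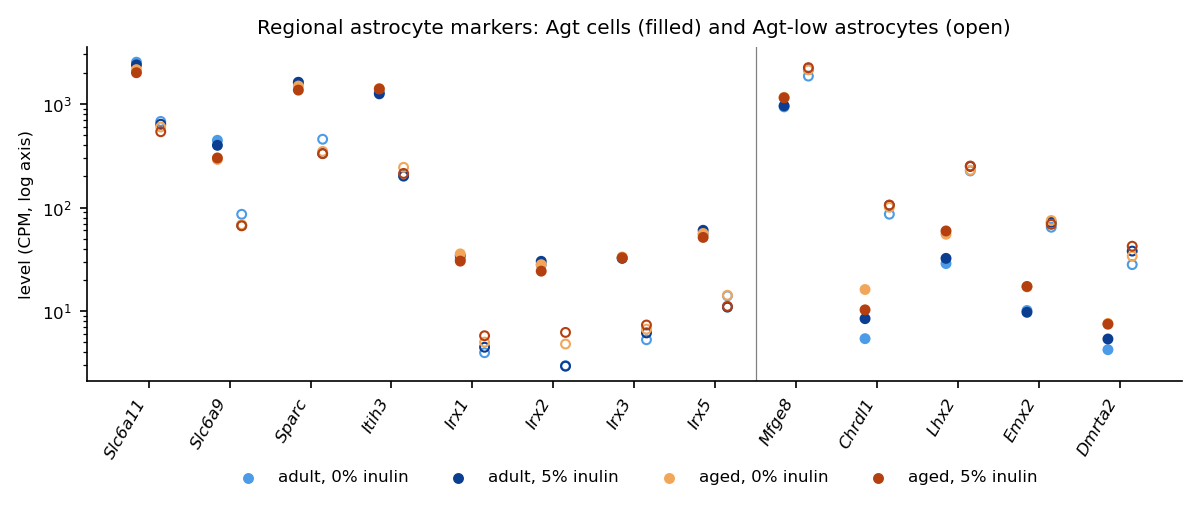
Level in CPM, on a log axis, of 8 non-telencephalic (left of the line) and 5 telencephalic markers in the Agt cells (filled) and the Agt-low astrocytes (open), 1 point per mouse. Every filled point lies above the open points on the left and below them on the right.

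The genes most increased in the Agt cells by the rule for naming (the 10 of largest fold change with a mean of at least 5 on the log2 CPM scale and the same sign in all 4 mice) were led by Igsf1 and Nkx6-2. Igsf1, an immunoglobulin-family membrane glycoprotein gene on chromosome X, was 174, 163, 175 and 153 CPM against 9.76, 5.74, 8.58 and 6.68 CPM (log2 fold change 4.44 ± 0.10). Nkx6-2, a homeobox factor on chromosome 7, was 159, 133, 116 and 185 CPM against 8.77, 7.57, 6.28 and 7.12 CPM (4.28 ± 0.09). Both were thus an order of magnitude higher in every mouse. Sfrp5, a secreted Wnt antagonist, followed at 3.23, then the noncoding A330076C08Rik (3.19), the endocytic adaptor Dab2 (2.71), the potassium channel subunit Kcnd2 (2.66), Itih3 (2.63), Gm42583 (2.56), the ectoenzyme Cd38 (2.54) and Slc6a9, the glycine transporter GlyT1 (2.32). Genes most decreased were Crym, a thyroid hormone-binding protein (-4.65), Chrdl1, a BMP antagonist (-3.41), Ankrd29 (-3.21), 6330403K07Rik (-2.98), Pde10a (-2.77), Fam13c (-2.64), Nupr1 (-2.54), Lhx2 (-2.54), Emx2 (-2.46) and Atp1b1, a sodium pump subunit (-2.46).

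Genes of transmitter handling were called in both directions. In the glutamate and GABA list 5 of 20 tested genes were higher (among them Grm5, Slc6a11, Gria1 and Gabbr2). Another 3 were lower (Grm3, Grin2c and Slc38a1), and the list had a median of 0.06. Over all genes tested 5.92% were higher and 8.35% lower, and whether the list departed from this background was not tested. Gria1, an AMPA receptor subunit, was 249, 244, 270 and 263 CPM in the Agt cells and 67.0, 61.4, 74.5 and 89.7 CPM in the Agt-low astrocytes (1.83 ± 0.07). The metabotropic receptors Grm5 and Grm3 went opposite ways, at 2.03 and -1.19. In the glycine and serine list the transporters Slc6a9 and Slc7a10 were higher, while Gldc of the glycine cleavage system (-1.66) and the serine synthesis enzymes Psph (-0.97) and Psat1 (-0.94) were lower, 5 of 11 in all. Ion handling genes were higher in 4 of 14 and lower in none: the potassium channels Kcnj10 (1.14) and Kcnj16 (0.63), the bicarbonate transporter Slc4a4 (1.12) and the sodium pump subunit Atp1b2 (0.87).

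The immediate early genes, which respond within minutes to stimulation and to tissue dissociation, were lower in the Agt cells in 12 of 20 and higher in none, with a median of -0.91. Fos was 37.0, 32.8, 15.2 and 21.0 CPM against 83.0, 79.9, 81.4 and 72.3 CPM. Nr4a2 had the largest difference (-4.45). Of 6 tested oligodendrocyte precursor markers 4 were higher, led by Lhfpl3 (1.73) and Olig1 (1.01). Beside the counts of both lists, 5.92% of all genes tested were higher and 8.35% lower.

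Marker RNA of other cell types also differed between the populations, in both directions. All 7 ependymal markers were lower in the Agt cells (median -1.58), beside 8.35% of all genes tested. Their sum was 171, 235, 157 and 213 UMIs per 1000000 in the Agt cells against 477, 351, 655 and 449 in the Agt-low astrocytes, with Rarres2 the most abundant and none at 0. The olfactory ensheathing list, led by Fabp7, summed to 382, 351, 395 and 315 UMIs per 1000000 against 1159, 518, 190 and 250, and was thus higher in the Agt cells of both aged mice. Other lists were higher in the Agt cells of every mouse. Endothelial markers summed to 493, 542, 469 and 491 UMIs per 1000000 against 378, 398, 394 and 442, and oligodendrocyte precursor markers to 307, 272, 225 and 237 against 172, 159, 150 and 201. Microglial markers summed to 252, 262, 393 and 360 against 232, 245, 347 and 324. The part of these cell types in the differences was not tested. Without cells of either population that held 5 or more UMIs of a mural, neuronal, neuroblast, oligodendrocyte, ependymal, fibroblast, ensheathing (Fabp7 aside) or T and NK cell list, a setting added after seeing the data, 915 genes were higher and 739 lower. Every gene of the regional lists kept its call and direction in each of the 16 alternative settings.

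Other genes of the renin-angiotensin system were read beside Agt. Of the 10 tested none was called between the populations, a count near the background of 5.92% higher and 8.35% lower over all genes, and their median log2 fold change was 0.0092; none of the same number tested with age or diet was called. Atp6ap2, the prorenin receptor, was 182, 177, 168 and 175 CPM in the Agt cells and 140, 145, 146 and 156 CPM in the Agt-low astrocytes (0.26 ± 0.06, below the fold threshold). Ren1 had 4 UMIs over all Agt cells, and Ace had 64. No UMI of Agtr1a, Agtr2 or Mas1, the angiotensin receptors, was counted among 12622931, and Agtr1b had 1. RNA of Agtr1a, Agtr2 and Mas1 was not detectable at this depth.

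Gfap-high astrocytes formed a small comparison group of 12, 21, 18 and 46 cells. Of 10395 genes tested, 1113 (10.7%) were higher in the Agt cells and 1248 (12.0%) lower. Myoc, myocilin, was 0.471, 1.55, 1.89 and 1.87 CPM in the Agt cells and 872, 2304, 2281 and 1322 CPM in the Gfap-high astrocytes (log2 fold change -10.21 ± 0.19, adjusted p = 2.64e-17, edgeR). Fxyd6 (-5.74) and Aebp1 (-4.60) followed. The cilia genes Meig1, Rsph1 and Fam183b were also among the 10 most decreased. Higher in the Agt cells were Gria4 (4.77), Mgat4c (3.84) and Slc6a9 (2.78). The gene 4930432E11Rik had 83.1, 58.2, 29.8 and 60.2 CPM in the Agt cells and no UMI in any Gfap-high group.

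The Agt cells were not uniform. Clustering without the genes of the rule and those called with age gave 9 clusters, named here by their leading gene, and leading genes are a description. The largest, led by Itih3, Nkx6-2, Nnat and Igsf1, held 499 cells (25.5%). It held 26.4%, 23.8%, 28.4% and 24.1% of the Agt cells of the 4 mice. Clusters led by Id3 with Otx2 and Foxb1 (296 cells), by Adam11 (281), by Igfbp2 with Aldh1a1 (263), by Nnat (137) and by Car14 with Hoxb3os (133) ranged from 1724 to 3017 Agt and from 2151 to 2860 Slc6a11 UMIs per 1000000. The Nnat-led cluster also had the ependymal genes Ccdc153, Tmem212 and Rarres2 among its 10 leading genes.

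Against the label, 1 cluster of 277 cells (14.2%), led by Cspg5, carried telencephalic markers. Lhx2 was 201 UMIs per 1000000 there and at most 4.21 in the Itih3-, Id3-, Adam11-, Igfbp2-, Nnat- and Car14-led clusters, and 4 of the 8 telencephalic markers (among them Emx2, Lhx2 and Mfge8) were found in 25% or more of its cells at 1.5 times the level elsewhere, a criterion set after the clusters were seen. Its Irx1, Irx2 and Irx3 were 3.58, 1.79 and 2.69 UMIs per 1000000. Agt was lower there than in the other large clusters, at 1084 UMIs per 1000000 and a median of 7 UMIs. A further cluster of 47 cells, led by Gdf10, matched 5 of the 6 markers fixed for Bergmann glia, the radial astrocytes of the cerebellum (A2m, Dao, Gdf10, Hopx, Timp4), and its median Slc6a11 was 0. These Bergmann glia-like cells had a median of 6 Agt UMIs. The last cluster, led by S100a9 and S100a8 with Cd74, Vtn and Acta2 among its 10 leading genes, had 22 cells at a median of 12919 UMIs, of which Scrublet called 16 doublets, and stays unnamed. It held 16 of the 19 doublets among all Agt cells. The label thus described most of the Agt cells but not the Cspg5-led and S100a9-led clusters.

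The makeup of the Agt cells differed between the ages in some clusters. The Cspg5-led cluster held 10.3% and 12.2% of adult and 17.9% and 20.9% of aged Agt cells. The Car14-led cluster held 9.64% and 8.06% of adult and 2.69% and 3.52% of aged Agt cells, and the Gdf10-led cluster 1.24% and 1.64% against 3.58% and 4.61%. In these 3 clusters, and in the Igfbp2-led and S100a9-led ones, the ages did not overlap. With 2 against 2 mice no exact permutation test can fall below p = 0.33, and the dissection and recovery of regions was not measured.

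**Figure D3:**
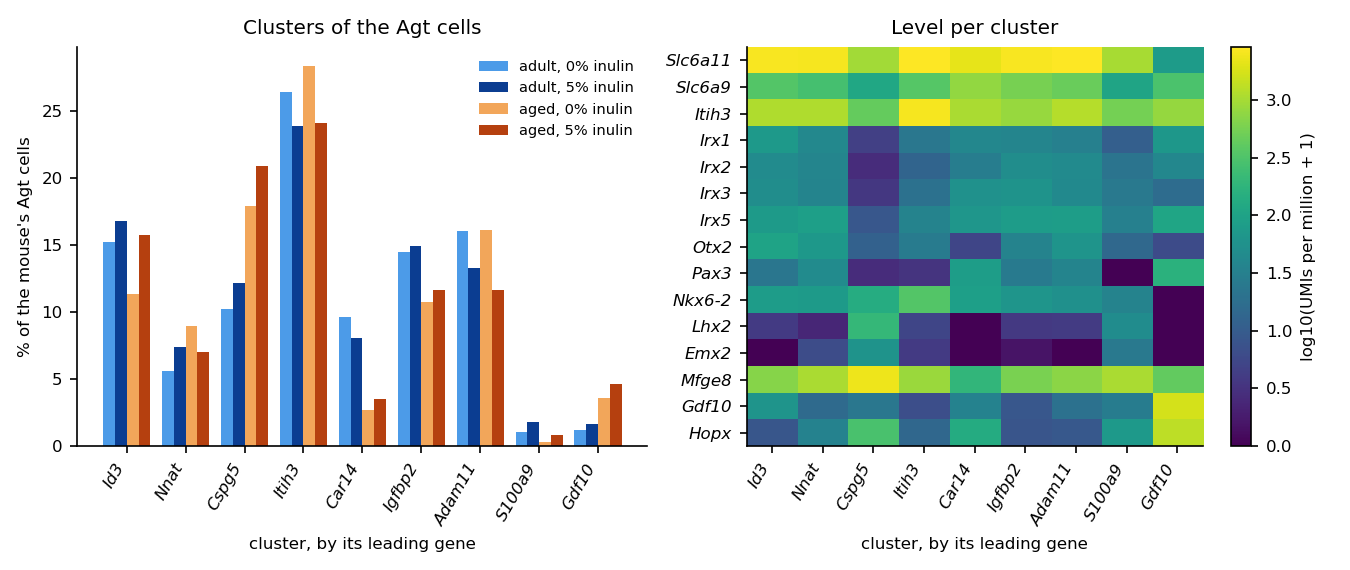
Left, percent of each mouse's Agt cells in each of 9 clusters, named by their leading gene; right, level of regional and Bergmann glia genes per cluster as log10 of UMIs per 1000000 plus 1. The Cspg5-led cluster stands out by Lhx2, Emx2 and low Irx genes and is larger in both aged mice (17.9% and 20.9%) than in the adult mice (10.3% and 12.2%).

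Between the ages, the Agt cells of aged mice had more RNA of genes of the interferon and MHC class I list and of C4b, a complement component. Over 12662 genes tested, 70 (0.553%) were called higher and 42 (0.332%) lower in aged mice. Of the 70, 3 (Gfap, C1qa and C1qb) are genes whose counts the rule limits, and they are not read further. In these sums over cells, more cells with a gene and more RNA per cell cannot be told apart.

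C4b, complement component 4 on chromosome 17 from 34728380 to 34743882, was 43.7, 45.7, 134 and 135 CPM (log2 fold change 1.59 ± 0.10 SE, adjusted p = 1.28e-05, edgeR). Ifi27, an interferon-induced mitochondrial protein, was 133, 134, 294 and 330 CPM (1.22 ± 0.09). Lgals3bp, a secreted galectin ligand, was 48.6, 49.5, 111 and 116 CPM (1.21 ± 0.10). In all 3 the adult mice nearly coincided and the aged mice lay above them, with no droplet holding more than 34 UMIs. All 3 kept the call in all 16 alternatives.

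Members of the interferon and MHC class I list were among the genes called higher. Of 27 members tested 14 were higher, none was lower and 13 did not pass the test; all 27 had a positive log2 fold change, and the median was 1.22 beside 0.0038 over all genes; the background of higher calls was 0.553%. Ifit3, an interferon-induced RNA-binding protein, was 32.1, 37.6, 76.6 and 118 CPM (1.49 ± 0.18), Ifit1 was 4.18, 9.40, 42.3 and 32.3 CPM (2.47 ± 0.29), and Isg15, a ubiquitin-like modifier, was 1.63, 1.78, 12.2 and 17.1 CPM (3.08 ± 0.37). The aged mice were above the adult mice in each. Some of this RNA sat in few cells: 1 cell of the aged 5% mouse held 69 of its 257 Ifit3 UMIs, and 14 of its 37 Isg15 UMIs were in 1 cell. Leaving out the highest droplet of each gene in each mouse gave 1.30 for Ifit3 and 2.68 for Ifit1. Usp18 (3.21), Oasl2 (2.50) and Psmb8 (2.27) were the other members of largest change among those named, and H2-D1, Tap1 and Psmb9 of antigen presentation were also called.

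To set sequence beside these levels, the promoters of called interferon-list members (250 bases before to 50 after the start, RefSeq, GRCm38.p6) were searched for GAAANNGAAA and its reverse complement TTTCNNTTTC, the core letters of an interferon-stimulated response element; the searches overlap where matches share bases. Of the 14 called members 10 had a promoter in the table and 4 of these held a match (Ifit1, Ifit3, Isg15 and H2-T23), 40.0%, beside 3.99% of all 27025 promoters. Of the 46 promoters found for the 70 genes called higher 12 held one (26.1%), as did 2 of 28 found for genes called lower (7.14%), and 3.66% of the 9300 found for genes tested. The 3 promoters with more than 1 match are shown 5′ to 3′, with the matching letters in capitals.
Ifit1, chr19:34640639-34640938, plus strand: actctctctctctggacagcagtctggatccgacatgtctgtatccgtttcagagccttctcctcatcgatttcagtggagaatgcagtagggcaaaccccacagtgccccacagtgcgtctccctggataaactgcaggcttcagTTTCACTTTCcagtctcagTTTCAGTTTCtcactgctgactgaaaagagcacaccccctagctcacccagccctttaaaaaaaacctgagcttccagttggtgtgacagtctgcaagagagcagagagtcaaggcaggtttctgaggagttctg
Ifit3, chr19:34583279-34583578, plus strand: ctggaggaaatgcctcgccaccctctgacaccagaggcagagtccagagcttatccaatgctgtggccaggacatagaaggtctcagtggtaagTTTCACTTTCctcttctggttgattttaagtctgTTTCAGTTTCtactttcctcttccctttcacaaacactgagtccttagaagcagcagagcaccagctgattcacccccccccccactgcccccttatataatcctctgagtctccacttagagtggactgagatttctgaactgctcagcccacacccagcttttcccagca
Isg15, chr4:156200769-156201068, minus strand: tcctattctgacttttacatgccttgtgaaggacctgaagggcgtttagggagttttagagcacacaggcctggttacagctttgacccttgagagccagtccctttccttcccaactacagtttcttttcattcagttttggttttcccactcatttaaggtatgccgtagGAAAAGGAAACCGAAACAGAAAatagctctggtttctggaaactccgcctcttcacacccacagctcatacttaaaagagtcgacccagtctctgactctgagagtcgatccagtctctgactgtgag
The Ifit1 and Ifit3 promoters each hold 2 matches of the second form, beginning 104 and 85 and 156 and 122 bases before the start, and the Isg15 promoter holds 3 overlapping matches of the first form, from 78, 72 and 66 bases before it. A match is a run of letters and not shown here to be bound.

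Leaving out Gfap, whose counts the rule limits, the reactive astrocyte list had 7 of 18 tested members higher (0.553% over all genes tested) and none lower (median 0.71). Beside C4b these were Cxcl10, Iigp1, Psmb8, Ggta1, H2-T23 and the intermediate filament Vim, and 2 of the 7 also belong to the interferon list. Vim was 68.3, 96.6, 127 and 148 CPM (0.74 ± 0.14), but it is the third leading gene of the Gdf10-led cluster, and without the Cspg5-, Gdf10- and S100a9-led clusters its log2 fold change was 0.37 (adjusted p = 0.484, edgeR). Cxcl10, a chemokine, had 3, 1, 23 and 35 UMIs, of which 18 and 26 of the aged counts lay in single cells. Among the largest changes outside these lists were Amigo2, a neuronal adhesion protein, at 19.8, 20.6, 51.2 and 52.1 CPM (1.36 ± 0.15), and Cirbp, a cold-inducible RNA-binding protein, at 58.1, 61.7, 135 and 122 CPM (1.10 ± 0.10). Mt2, a metallothionein, was 846, 831, 1242 and 1456 CPM (0.69 ± 0.09). All 3 were higher in both aged mice than in either adult mouse.

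Microglial markers moved with age in the same cells: their sum was 252, 262, 393 and 360 UMIs per 1000000, with none at 0. That sum includes complement C1q genes, whose counts the rule limits. Of the 9 tested markers it does not limit, Ctss was called higher (0.553% over all genes tested) and none lower (median 0.30). Their part in the C4b and interferon results was not tested. In microglia of the same libraries C4b was 19.5, 14.7, 30.5 and 40.9 UMIs per 1000000, below its 43.1, 45.8, 134 and 133 in the Agt cells. Other genes of the age difference went both ways. Ifit3 was lower in microglia in every mouse, at 16.2, 19.6, 64.9 and 65.4 against 31.7, 37.7, 76.2 and 117 in the Agt cells. Ifi27 was 142, 139, 172 and 199 UMIs per 1000000 in microglia against 131, 135, 292 and 326. Ifit1 was 12.6, 12.3, 31.9 and 26.2 against 4.13, 9.41, 42.1 and 31.9. Both were lower in microglia in the aged mice only. H2-D1, Lgals3bp and Isg15 were higher in microglia in every mouse. H2-D1 was 716, 689, 1631 and 1740 UMIs per 1000000 in microglia against 62.0, 96.4, 123 and 164 in the Agt cells. Lgals3bp was 91.9, 73.0, 235 and 266 against 48.0, 49.6, 111 and 114, and Isg15 was 20.3, 21.3, 48.9 and 48.2 against 1.61, 1.78, 12.2 and 16.9.

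Hopx (1.29) and Lhx2 (0.91) were also called higher, at 66.2, 82.6, 156 and 208 CPM and at 28.4, 32.0, 54.5 and 58.6 CPM. These are genes of the Gdf10-led and Cspg5-led clusters, which held larger shares of the aged Agt cells. Without those clusters and the S100a9-led cluster Hopx had a log2 fold change of -0.20 (adjusted p = 0.789, edgeR) and Lhx2 was too low to be tested, while C4b had 1.72, Ifi27 1.32 and Ifit3 1.44.

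**Figure D4:**
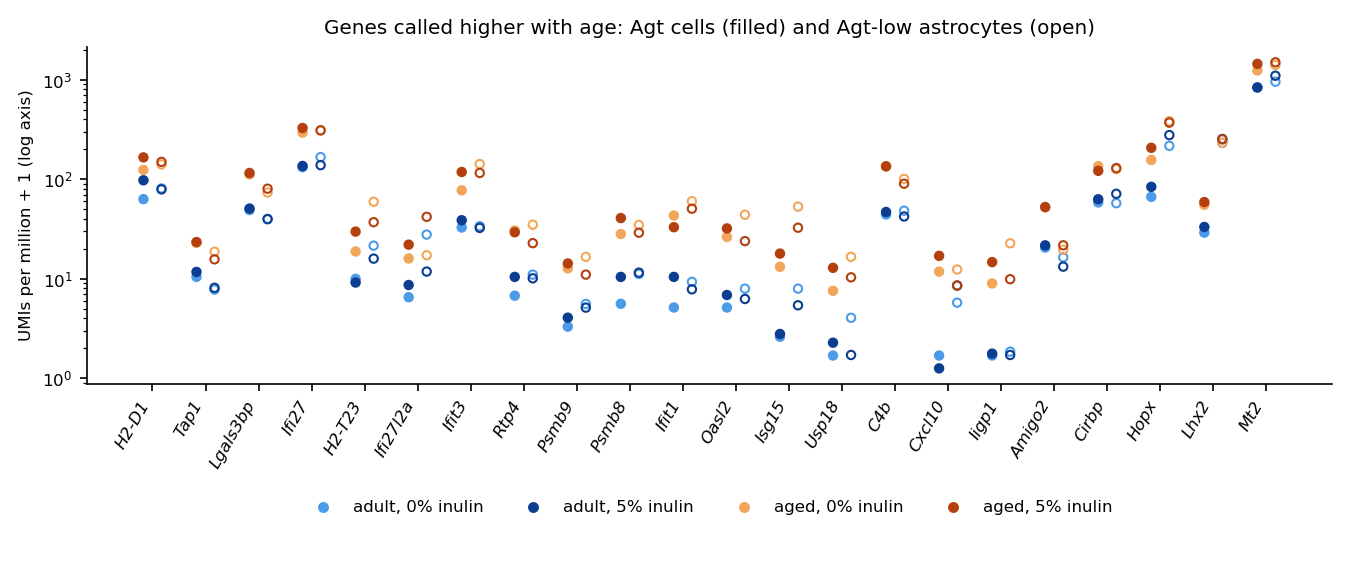
Level as UMIs per 1000000 plus 1, on a log axis, of the 14 called interferon-list genes and 8 other genes called higher with age, in the Agt cells (filled) and the Agt-low astrocytes (open), 1 point per mouse. Filled points of both aged mice lie above those of both adult mice for every gene shown, and among the open points Lhx2 and Ifi27l2a show no such order.

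Among the genes that were lower in aged Agt cells were members of the lists of other cell types. Enpp2 (autotaxin) and Ttr (transthyretin), secreted by the choroid plexus, were 649, 531, 283 and 251 CPM (-1.14 ± 0.11) and 6576, 5179, 3529 and 3700 CPM (-0.70 ± 0.09). Of 7 choroid plexus markers 3 were called lower with all 7 below 0, beside 0.332% called lower and 49.5% below 0 over all genes tested. Ttr made up 89.8% of the list's UMIs. Ttr was also lower in both aged mice in microglia and endothelial cells of these libraries. It was 6744, 5829, 3109 and 4365 UMIs per 1000000 in microglia and 6138, 5358, 2741 and 4220 in endothelial cells. In the Agt-low astrocytes Ttr was 6056, 4758, 2952 and 5372 UMIs per 1000000, and in the Gfap-high astrocytes 3875, 3493, 1863 and 6787. There the aged 5% mouse was above the adult 5% mouse in the first and above both adult mice in the second. Enpp2 was lower in both aged mice in microglia (649, 615, 228 and 276 UMIs per 1000000), endothelial cells (610, 562, 252 and 308) and Agt-low astrocytes (567, 466.5, 221 and 332). In the Gfap-high astrocytes Enpp2 was 350, 374, 168 and 477, with the aged 5% mouse above both adult mice.

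Of 10 mural cell markers 4 were called lower, beside 0.332% of all genes tested, with a median of -1.85 over the list. Vtn, vitronectin, was 89.0, 87.1, 24.9 and 16.1 CPM (-2.10 ± 0.16), but 101 of 383 UMIs in the adult 0% mouse came from 1 cell. Rgs5 (-1.40) and Myl9 (-1.32) were alike. Without the S100a9-led cluster, which held 7, 11, 1 and 3 cells, the log2 fold changes were -0.28 for Vtn, 0.12 for Rgs5 and 0.26 for Myl9, and none was called. Vtn and Rgs5 are among the 10 leading genes of that cluster, so their change on leaving it out is no separate test. The part of mural cells in these decreases was not tested further. Mural markers summed to 439, 348, 176 and 181 UMIs per 1000000 in the Agt cells, with Pdgfrb the most abundant and none at 0.

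Of the remaining decreases, Car14, carbonic anhydrase 14, was 91.8, 69.1, 38.1 and 45.7 CPM (-0.94 ± 0.16), and leads a cluster with fewer aged cells. 1500015O10Rik (-0.95), Nrxn3 (-0.82) and Zfp462 (-0.80) were the others outside those lists. Igfbp7 had -0.88, but 0.18 without the S100a9-led cluster, and was called in 9 of 16 alternatives. The endoplasmic reticulum chaperone Hspa5 was 501, 397, 278 and 313 CPM (-0.60 ± 0.11), 1 of 2 heat shock genes of 15 that were called lower. Leaving out the genes the rule used, no gene of the cholesterol synthesis (21 tested), glutamate and GABA (20), glycine and serine (11), ion and water (14), circadian (22) or pan-astrocyte lists (17) was called with age, nor any of the 15 mitochondrial transcripts. With 0.553% higher and 0.332% lower over all genes tested, an absence of calls in lists of this size is near the background. The medians of these lists ran from -0.16 to 0.06. All 14 ion and water genes had a log2 fold change below 0, beside 49.5% of all genes tested. Of the 14, 8 (57.1%) were lower in both aged mice than in either adult mouse, beside 22.4% of all genes tested. The 14 genes summed to 16248, 15636, 13838 and 13296 CPM.

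Whether age acted differently in Agt cells and in Agt-low astrocytes was tested by a population-by-age term. Over 14611 genes, 26 (0.178%) were called with a more positive and 9 (0.0616%) with a more negative age difference in the Agt cells. No member of the interferon list was among them (0 of 28, median 0.07), and C4b had a difference of 0.47 ± 0.14 with an adjusted p of 0.256. Isg15 in the Agt-low astrocytes was 6.93, 4.40, 51.9 and 31.5 UMIs per 1000000 and was thus also above the adult level in both aged mice. Lhx2 differed, with 224.7, 248, 230 and 251 CPM in the Agt-low astrocytes, where the ages overlapped, and a difference of 0.88 ± 0.14 (adjusted p = 0.00452, edgeR). Among the largest differences were those of Apod and Npy, genes of olfactory ensheathing cells (4.16 ± 0.38 and 3.82 ± 0.39). Without cells that held 5 or more UMIs of another class they were 0.38 and 0.28 (adjusted p = 0.925 and 0.961, edgeR). Npy is itself on the ensheathing list that set which cells were left out, so its fall is no separate test. Neither gene was called by DESeq2, and leaving out 1 mouse gave 2.75 to 5.33 for Apod and 2.82 to 4.52 for Npy. Single droplets held 243 of 300 and 177 of 209 Apod UMIs in the Agt cells of the adult 0% and aged 0% mice. Apod was 70.6, 31.3, 99.5 and 32.6 CPM in the Agt cells but 605, 190, 18.4 and 36.3 CPM in the Agt-low astrocytes, where both aged mice were below both adult mice.

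Diet was compared with age as a covariate, which left 1 residual degree of freedom. Of 12662 genes 53 (0.419%) were higher and 15 (0.118%) lower with 5% inulin; without the covariate none was called in edgeR (255 at an unadjusted p under 0.05), and DESeq2 called 2 higher and 1 lower. Cd74 and Cd52, the genes of largest change among those with a mean log2 CPM of at least 5 and no overlap between the diets, are genes of immune cells. Cd74, the MHC class II invariant chain, had 33, 136, 17 and 490 UMIs, of which 1 droplet of the adult 5% mouse held 115 and 1 of the aged 5% mouse 460. Cd52, a leukocyte surface protein, had 17, 159, 37 and 166 UMIs, with 44 and 85 in single droplets of the mice fed 5%. Without the S100a9-led cluster 12 genes were called, and the log2 fold changes were 0.09 for Cd74 and 0.15 for Cd52 beside 3.58 and 2.64 with it. With only the highest droplet of each gene in each mouse left out they were 0.22 and 2.45, and Cd52 kept its call. Lcn2, of the reactive astrocyte list, was also called higher (2.98 ± 0.26) but had 13, 240, 17 and 6 UMIs, with 138 of the 240 in 1 droplet, and was not higher with 5% inulin in the aged mice.

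Apod, Npy and Mgp were lower with 5% inulin (-1.35, -0.70 and -0.65). Single droplets held 205 of 271, 121 of 211 and 98 of 212 Npy UMIs in the adult 0%, adult 5% and aged 0% mice. Without the highest droplet of each gene in each mouse Apod had 0.15, Npy -0.11 and Mgp -0.61, and of 10 alternatives Apod and Mgp were called in 6 each and Npy in 3. Hbb-bs, a hemoglobin chain, had 40.9, 112, 66.3 and 75.6 CPM (0.93 ± 0.13) and was spread over cells, with at most 19 UMIs in 1 droplet. It was higher with 5% inulin at each age. The same order held in Agt-low astrocytes (35.5, 95.5, 54.5 and 57.0 UMIs per 1000000), Gfap-high astrocytes (7.28, 70.1, 24.0 and 348) and microglia (39.6, 521, 45.3 and 316). In endothelial cells (1960, 892, 1282 and 2174) Hbb-bs was lower with 5% inulin in the adult mice. Hemoglobin is a product of red blood cells, and their part in these differences was not tested. In the Agt cells the red cell list summed to 77.6, 208, 122 and 118 UMIs per 1000000, with Hbb-bs the most abundant and none at 0. Gdf10, of the Bergmann glia list, was 34.9, 81.1, 99.6 and 114 CPM (0.70 ± 0.12), higher with 5% inulin at each age though the diets overlapped, and was called in 5 of 10 alternatives. Genes of the rule aside, no gene of the telencephalic, non-telencephalic, renin-angiotensin, cholesterol, glutamate and GABA, glycine and serine or ion and water lists was called between diets. This is near the background of 0.419% higher and 0.118% lower over all genes tested.

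**Figure D5:**
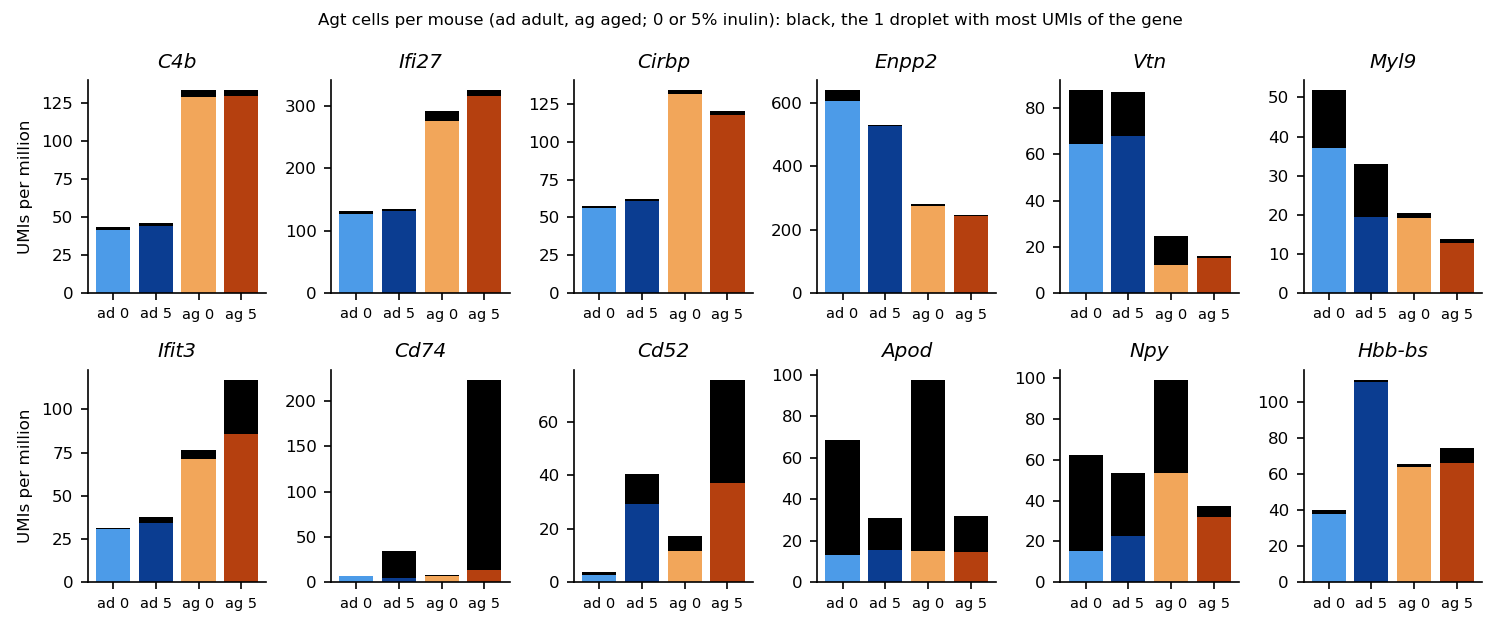
UMIs per 1000000 in the Agt cells of each mouse for 12 genes, with the part held by the single droplet of highest count in black. For C4b, Ifi27, Cirbp, Enpp2 and Hbb-bs that part is small, and for Cd74 it is 115 of 136 UMIs in the adult 5% and 460 of 490 in the aged 5% mouse.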

How the data were processed

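Per the labels, each mouse gave 1 library. The deposited values are UMI counts per gene and barcode, which the authors made with Cell Ranger 3.1.0 on GRCm38, as the submitters' processing notes give them. The members and gene lists were chosen with earlier results of these data known. Raw counts were summed per mouse and population and tested with edgeR 4.0.16 (R 4.3.3; TMM scaling, genes with low counts left out, quasi-likelihood test, Benjamini-Hochberg adjustment). Ages were compared without a covariate, diets with age as a covariate, and populations with the mouse as a block, since both come from the same animal. Calls needed a fold change above 1.5 with an adjusted p below 0.05. Named genes were the 10 of largest change in each direction among called genes with a mean log2 CPM of at least 5 and 1 direction in all mice, outside the genes of the rule, and members of the lists. Scrublet in scanpy 1.11.5 marked doublets, which were kept. Gene positions are those of GENCODE for GRCm38. On simulated data with 200 genes changed 2-fold, the age test recovered 80% with 5 false calls among 12397 genes, the diet test 85.5%, the population test 96.5% and the test of the difference between age effects 58%. With none changed there was no call. The changed genes were drawn only from those above a floor on mean count, so these rates do not cover genes of low count. Alternatives were DESeq2 1.42.0, no filter on low counts, thinning to 2000 UMIs, doublets left out, a higher limit on Agt UMIs, a limit on Agt as a rate that took in more cells, a stricter limit on the astrocyte sum, a reference without Agt, other covariates, and each mouse left out. Settings that left out clusters, cells of another class or the highest droplet were chosen after seeing the data. Some named genes are not reported here.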

Additional observations from a re-analysis of the deposited data

Results flagged for a closer look

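The age difference in Agt cells and that in Agt-low astrocytes were themselves tested against each other (edgeR, population-by-age term), and 17 genes named here, for their level or as members of a list, passed the thresholds. A positive value means a more positive log2 difference of aged over adult mice in the Agt cells. Genes of other regions or cell types stood among them: Hopx had 0.64 and Lhx2 0.88, Crym had 3.71 and Fam13c 1.06. The olfactory ensheathing genes Apod and Npy had 4.16 and 3.82. Fabp7, on the ensheathing list but also among the 10 leading genes of the Cspg5-led cluster, had 1.18. Npy was 63.8, 54.2, 101 and 38.2 CPM in the Agt cells and 425, 130, 18.7 and 22.9 CPM in the Agt-low astrocytes. Crym, with 1, 12, 21 and 52 UMIs in the Agt cells, had 15 and 32 of the aged counts in single droplets.

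The chemokine Cxcl10 had 4.05, the endocytic adaptor Dab2 1.00, Ccn3 1.41, Fxyd5 1.48 and Igfbp5 1.22. Dab2 was 112, 109, 89.5 and 85.7 CPM in the Agt cells and 23.4, 18.8, 8.17 and 8.45 CPM in the Agt-low astrocytes, lower in both aged mice in each. More negative in the Agt cells were the mural genes Abcc9 (-3.37) and Rgs5 (-1.07), the neuronal RNA Meg3 (-1.26), Olig1 (-0.62) and Igfbp2 (-0.61). Igfbp2, an insulin-like growth factor binding protein, was 293, 273, 163 and 198 CPM in the Agt cells and 388, 383, 344 and 405 CPM in the Agt-low astrocytes. None of these 17 genes kept its call under every alternative.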

How the results depend on the processing

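The number of genes called with age (112) was 60 with DESeq2, 330 without a filter on low counts, 45 with cells thinned to 2000 UMIs, 172 without doublets, 191 with the astrocyte sum at 60 per 10000 or more and 315 with diet as a covariate. It was 206 without the S100a9-led cluster and 179 without cells holding 5 UMIs of another class, settings chosen after seeing the data. Leaving out 1 mouse gave 158 to 250 calls, with 250 without the adult 5% mouse and 212 without the aged 0% mouse; the lone mouse then left at 1 age is assumed to vary like the others. The calls with diet (68) were 3 with DESeq2, 12 when thinned, 35 with at least 8 Agt UMIs, 32 with at least 5 Agt UMIs per 10000, 0 without a covariate, 12 without the S100a9-led cluster and 37 without the highest droplets. Leaving out a mouse could not be fitted for diet, as no residual degree of freedom is left.

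Between Agt cells and Agt-low astrocytes (1957 calls), thinning gave 1123 and leaving out 1 mouse 1676 to 1934. Against Gfap-high astrocytes (2361), thinning gave 739, the stricter astrocyte sum 1572 and leaving out 1 mouse 1664 to 2355. With no replicate block, where populations of the same mouse are not paired, the counts were 1736 and 2833. The difference of age effects (35) gave 3 with DESeq2, 129 without the filter, 9 when thinned, 21 with at least 8 Agt UMIs, 82 with at least 5 Agt UMIs per 10000, 21 with a reference without Agt, 55 without the S100a9-led cluster and 11 to 144 with 1 mouse left out (98 without adult 0%, 144 without adult 5%, 21 without aged 0% and 11 without aged 5%). The setting without the S100a9-led cluster took cells from the Agt cells only and kept all Agt-low astrocytes, so it was one-sided between the populations. The share of Agt cells was lower in aged mice in every setting (-4.39 to -10.77 points with 1 mouse left out), as was the Agt level (-0.04 to -0.29).

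Of 49 genes reported with age, 16 were called in every alternative in which they were tested, as were 58 of 88 between Agt cells and Agt-low astrocytes, 18 of 20 against Gfap-high astrocytes and none of 25 with diet. Directions turned in few settings, and the cause was not tested. For genes of the lists that set which cells of another class were left out, that setting is no separate test. With age these are Myh11, Rgs5, Tagln and Vtn, and between populations Cd24a, Foxj1, Snhg11 and Tmem212. Acta2, Rgs5 and Vtn are also among the leading genes of the S100a9-led cluster, so the same holds where it was left out. Log2 fold changes of aged over adult became positive without cells of another class for Fos (0.18), Igfbp7 (0.26), Myh11 (0.34), Myl9 (0.41), Rgs5 (0.20), Tagln (0.31) and Vtn (0.55). Without the Cspg5-, Gdf10- and S100a9-led clusters they were -0.20 for Hopx, 0.21 for Igfbp7, 0.16 for Klf2, 0.30 for Myl9, 0.060 for Rgs5, 0.33 for Tagln and 0.33 for Vtn, and without the S100a9-led cluster alone 0.18 for Igfbp7, 0.26 for Myl9, 0.12 for Rgs5 and 0.17 for Tagln. With diet, Acta2 became 0.026, Lcn2 -0.20 and Tagln 0.49 without that cluster, Lcn2 -0.16 with at least 8 Agt UMIs, and Apod 0.46 with the stricter astrocyte sum and 0.15 without the highest droplets. Between populations, the setting without cells of another class gave 0.47 for Cd24a, 0.13 for Foxj1, 0.0035 for Hsp90aa1, 0.50 for Isg15, 0.22 for Snhg11 and 0.33 for Tmem212, the stricter astrocyte sum 0.20 for Cd24a, 0.11 for H2-T23 and 0.33 for Isg15, and the setting without the S100a9-led cluster -0.17 for Myh11. The difference of age effects became -0.22 for Fxyd5 and 0.023 for Meg3 with the stricter sum, 0.23 for Rgs5 without cells of another class, and 0.46 for Rgs5 without the S100a9-led cluster. With 1 mouse for each age and diet, and 2139560 UMIs in the shallowest group, small differences in genes of low count were not detectable.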
